A study of Mus musculus with 25 samples.

Results

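The genes described here are the chemokines and the chemokine receptors of the mouse. They were chosen by symbol: every Ccl, Cxcl, Ccr, Cxcr or Ackr gene with a number and at most 1 letter after it, plus Cx3cl1 and Cx3cr1. Of 57 such genes in the annotation, 35 stood among the 11867 genes of the lung table (25 ligands and 10 receptors) and 39 among the 12661 genes of the skin table (26 ligands, 9 receptors and 4 atypical receptors). The tables shared 31 of them, 4 were in the lung table only, 8 in the skin table only, and 14 were in neither. The rule used names and no measured values, but it was chosen with earlier results of these data known. From these counts 1 gene that fits the rule was left out.

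The study asked how removing neutrophils changes gene expression in macrophages and fibroblasts of lung and skin, and 25 bulk RNA-seq libraries of sorted cells were analysed. All mice were C57BL/6, and all received 10 µg/kg diphtheria toxin into the peritoneum over 7 days. The neutrophil-depleted mice were Mrp8_CRE; Rosa26_DTR. In these mice Cre is driven by the promoter of S100a8 (Mrp8), a gene of neutrophils and to a lesser degree of other myeloid cells, and switches on the toxin receptor from the Rosa26 locus. The control mice were Mrp8_WT; Rosa26_DTR, so both groups carried the receptor allele and both received toxin. The sources used here give neither age nor sex. Lung interstitial macrophages were gated as live CD45+, CD68+, F4/80+, CD11c- and CD11b-high cells and skin macrophages as CD45+, CD11b+, CD68+ and F4/80+ cells. Fibroblasts were PDGFRA+ cells without CD45, CD31 and EPCAM, and also CD90.1+ in skin. There were 3 libraries in each lung group and in each skin fibroblast group, 4 of depleted skin macrophages and 3 labelled as control skin macrophages. The labels do not say that libraries of a group came from separate mice, so p-values reflect only how much these libraries vary, which may be technical variation.

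Chemokines are small secreted proteins that steer leukocytes along concentration gradients by binding G protein-coupled receptors on them. CXC chemokines that carry an ELR motif, such as Cxcl1, Cxcl2 and Cxcl3, attract neutrophils, whereas Ccl2, Ccl7 and Ccl12 attract monocytes through Ccr2. Atypical receptors (Ackr) bind chemokines without G protein signalling and clear or transport them. In tissues, macrophages are known as a source of inflammatory chemokines, and fibroblasts as a source of homeostatic ones such as Cxcl12.

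The lung libraries held 124075 to 385925 estimated reads and the skin libraries 6553115 to 27259903, so low genes were measured far less precisely in lung. The deposited signal of a gene at 0 reads was 1.498 to 3.404 in lung and 0.0186 to 0.0809 in skin, and each tabled lung value near that floor rests on a few reads. Because each organ's table was normalised on its own, no test crosses organs. Among 12 macrophage markers the summed signal in macrophage libraries was 16994 to 30573 in lung control and 38421 to 43728 in lung depleted libraries, against 182 to 386 and 285 to 676 in lung fibroblasts. Among 11 fibroblast markers measured, the summed signal was 3830 to 4953 in control and 3211 to 3880 in depleted lung fibroblasts. It was 47.5 to 74.7 and 24.6 to 54.1 in lung macrophages. On both lists the lung libraries matched their cell type labels. The lung macrophage libraries also held alveolar macrophage markers, at 5898 to 9533 summed in control and 6908 to 12031 in depleted ones, and neutrophil markers, described below. In skin, 2 of the 3 control libraries labelled macrophages, replicates 1 and 5, had macrophage marker sums of 66.7 and 59.97 and fibroblast marker sums of 89665 and 102185, as skin fibroblasts did (82996 to 101751 in controls). These 2 libraries were kept apart from every result below unless a sentence says otherwise, which leaves 1 control skin macrophage library.

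**Figure D1:**
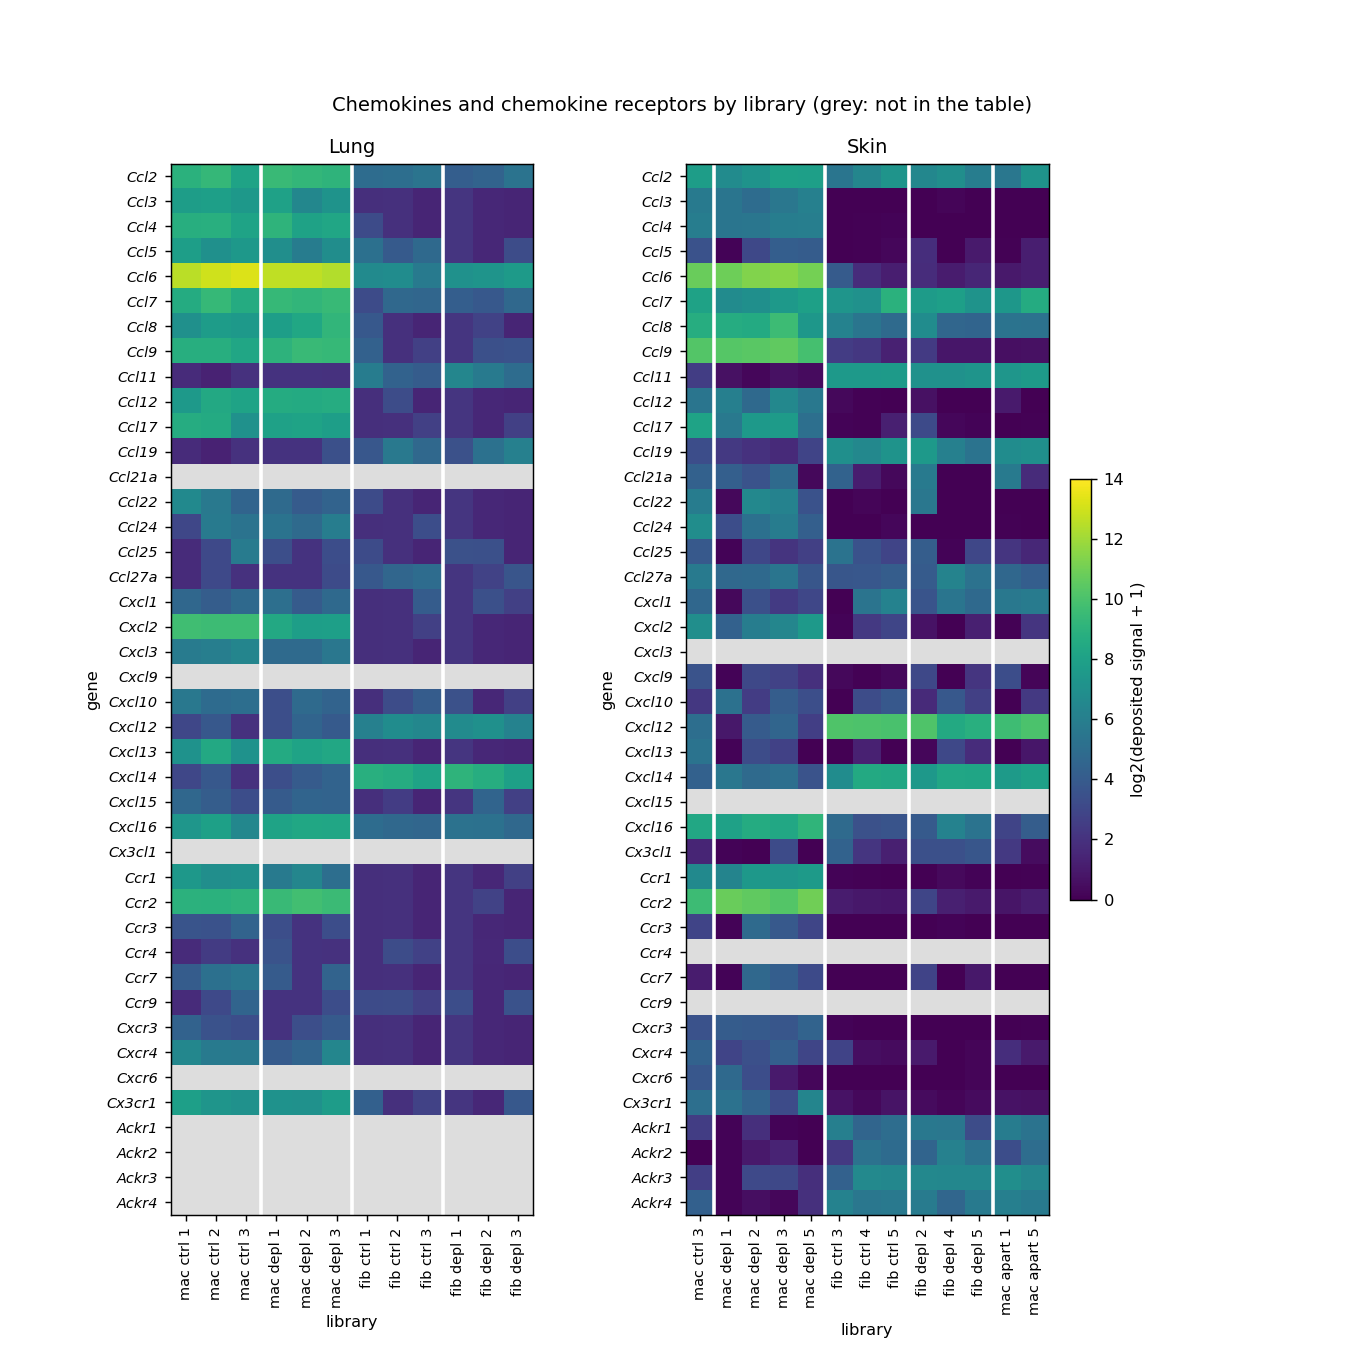
Each row is a chemokine, receptor or atypical receptor and each column a library (mac, macrophages; fib, fibroblasts; ctrl, control; depl, neutrophil-depleted; apart, the 2 libraries kept apart), with colour giving log2 of the deposited signal plus 1. In both organs the ligands Ccl3, Ccl4, Ccl6 and Ccl9 and the receptors Ccr1 and Ccr2 are bright in macrophage columns, and Cxcl12, Cxcl14, Ccl11 and Ccl19 in fibroblast columns, including the columns kept apart.

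In lung interstitial macrophages, neutrophil depletion went with less mRNA of Cxcl2, the neutrophil-attracting chemokine also called MIP-2. Cxcl2 was the 1 member of 35 that passed the test there. Its signal was 839, 763 and 774 in the control libraries and 354, 228 and 237 in the depleted ones. Every control value lay above every depleted value, and the log2 difference was -1.56 (SE 0.25) with an adjusted p of 1.34e-04 (limma with Benjamini-Hochberg adjustment over all 11867 genes, n = 3 and 3). No member rose and 1 fell, beside 0.0674% of all genes tested called higher and 0.430% called lower. Lung fibroblasts had almost no Cxcl2, at 2.73, 2.89 and 5.35 in control and 3.404, 1.94 and 1.73 in depleted libraries. The call was lost without control replicate 2, with an adjusted p of 0.0588, without a variance trend, at 0.418, and in a model of all 4 lung groups, at 0.220 (limma with Benjamini-Hochberg adjustment).

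Cxcl2 (ENSMUSG00000058427) lies on the + strand of chromosome 5, from 90903871 to 90905938 on GRCm38, in a cluster with Cxcl1 and Cxcl3, which encode closely related ELR chemokines. The sequences before their start sites are shown because the 3 genes share a promoter element while 1 of them passed the test. They come from RefSeq windows on GRCm38.p6, all on the + strand, and stop before the first exon base of the GENCODE gene. Capitals mark bases that match the NF-kappa-B motif, which was searched by name on both strands.
Cxcl1, chr5:90890995-90891240: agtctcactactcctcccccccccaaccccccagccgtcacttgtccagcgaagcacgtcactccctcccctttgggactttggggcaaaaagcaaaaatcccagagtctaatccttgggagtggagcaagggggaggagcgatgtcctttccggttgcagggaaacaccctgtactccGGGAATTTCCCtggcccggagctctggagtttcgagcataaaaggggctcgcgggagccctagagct
Cxcl2, chr5:90903649-90903870: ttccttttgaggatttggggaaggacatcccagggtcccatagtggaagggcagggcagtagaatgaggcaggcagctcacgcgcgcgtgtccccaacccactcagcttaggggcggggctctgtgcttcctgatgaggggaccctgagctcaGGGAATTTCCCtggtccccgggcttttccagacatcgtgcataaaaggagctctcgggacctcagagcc
Cxcl3, chr5:90785851-90786100: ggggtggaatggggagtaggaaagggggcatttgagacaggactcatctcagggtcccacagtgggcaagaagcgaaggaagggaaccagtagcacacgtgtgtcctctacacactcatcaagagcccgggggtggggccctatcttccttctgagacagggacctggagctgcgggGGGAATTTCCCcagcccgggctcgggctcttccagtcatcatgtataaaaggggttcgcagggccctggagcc
The same 11 letters, GGGAATTTCCC, stood in all 3, where 2 matches overlap on opposite strands. They began 71, 97 and 73 bases before the RefSeq start of Cxcl1, Cxcl2 and Cxcl3. Of the 34 members with a window of 250 bases, 8 held a match (Ackr2, Ccl9, Ccr1, Ccr3, Cxcl1, Cxcl10, Cxcl2 and Cxcl3), beside 7.25% of 32851 windows of this length. A member counted if any of its windows matched, while the share is per window, so the 2 figures differ in unit. Cxcl1, Cxcl2 and Cxcl3 are related neighbours and not independent cases. A match is a description of letters and not of a bound site.

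Cxcl3 was 55.1, 62.5 and 80.6 in control and 27.7, 27.9 and 45.8 in depleted lung macrophages. Its libraries did not overlap either, but the log2 difference of -0.97 (SE 0.46) had an adjusted p of 0.609 by limma with Benjamini-Hochberg adjustment. Cxcl1 stood at 24.9, 16.5 and 26.7 and 33.8, 15.5 and 26.5, with overlapping groups. At about 25 units of signal these values rest on few reads. Cxcl3 was not in the skin table, and Cxcl1 in skin is described with the fibroblasts.

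The receptor with the lowest p in lung macrophages was Ccr1, which binds Ccl3, Ccl5, Ccl6 and Ccl9 among others and is carried by neutrophils as well as macrophages. It measured 179, 121 and 128 in control and 52.3, 83.8 and 32.4 in depleted libraries, with no overlap. Its log2 difference of -1.41 (SE 0.38) missed the threshold, with an adjusted p of 0.0824 by limma with Benjamini-Hochberg adjustment. It passed, at an adjusted p of 0.0300, when values were scaled to the library total, and at 0.0153 without depleted replicate 2.

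Neutrophil markers moved with these values. Of 14 neutrophil markers tested, 11 were called lower in depleted lung macrophages and none higher. Their summed signal was 10252 to 20515 in control and 2119 to 2419.7 in depleted libraries, and no marker was at 0 reads in all libraries of a group. S100a8 read 5155, 3741 and 10656 in control and 895, 1052 and 1175 in depleted libraries, and Retnlg, another abundant neutrophil gene, 2934, 2469 and 3451 and 397, 379 and 474. These sums were measured in cells gated on CD68 and F4/80. The part of neutrophil RNA in the lower Cxcl2, Cxcl3 and Ccr1 was not tested, and in bulk samples fewer cells of a type and less RNA per cell cannot be told apart. Other lists moved too: 2 of 8 B cell markers were called lower (924 to 2356 against 242 to 766 summed) and 3 of 12 lung epithelial markers higher (2328 to 9419 against 11618 to 26705 summed).

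**Figure D2:**
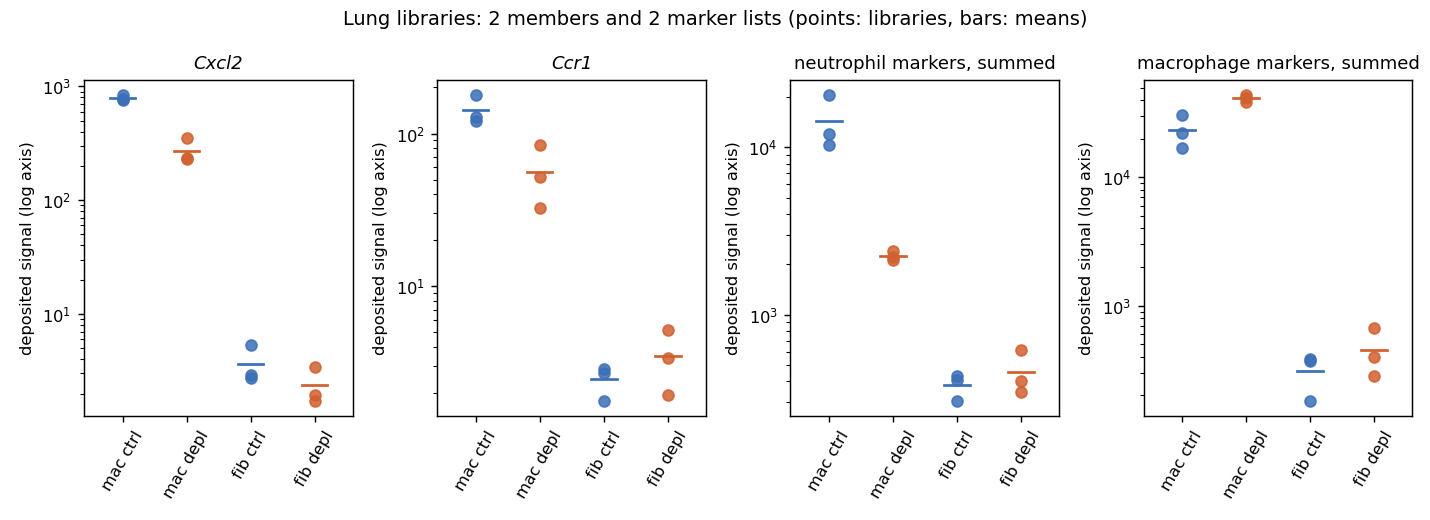
Points are the 3 libraries of each lung group and bars their means, on a log axis of deposited signal, for Cxcl2, Ccr1 and the summed neutrophil and macrophage markers. In macrophages the control points of Cxcl2, Ccr1 and the neutrophil sum all lie above the depleted ones, and the macrophage marker sum lies the other way round.

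Several ligands had higher mean values in depleted lung macrophages, and none of these passed the test. Ccl8, which acts on Ccr8 and other receptors in the mouse, measured 129, 214 and 186 in control and 231, 326 and 598 in depleted libraries. Cxcl16, a membrane-bound ligand of Cxcr6, measured 164, 249 and 87.8 and 279.9, 324 and 309. Neither gene's groups overlapped, and the log2 differences were 1.04 (SE 0.30) and 0.98 (SE 0.30), with adjusted p of 0.144 and 0.204 by limma with Benjamini-Hochberg adjustment. Ccl8 passed the threshold without depleted replicate 1, at an adjusted p of 0.0132. Ccl9, a ligand of Ccr1, was 445, 435 and 312 and 534, 705 and 665, also without overlap. For Cxcl16, 18.3% of the exon bases are shared with Zmynd15 on the opposite strand, and the sources used here do not say whether reads were counted by strand.

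The Ccr2 axis read alike. Ccr2, the receptor that brings monocytes out of the marrow and into tissue, was 510.1, 484 and 543 in control and 713, 878 and 751 in depleted libraries. Its ligands overlapped between groups except Ccl12, which was 183, 344 and 282 and 387, 375 and 401. Ccl2 was 482, 637 and 276 and 717, 617 and 551. The log2 differences were 0.60 (SE 0.24) for Ccr2, 0.57 (SE 0.27) for Ccl12, 0.51 (SE 0.27) for Ccl2 and 0.48 (SE 0.25) for Ccl7, and the adjusted p ran from 0.455 to 0.663 (limma with Benjamini-Hochberg adjustment). The macrophage marker sum given above was also higher in every depleted library than in any control one, although none of its 12 genes passed the test, and its part in these differences was not tested.

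Ccl5, a T cell and monocyte attractant, had a lower mean in depleted lung macrophages, at 228, 127 and 175 in control and 120.0, 58.95 and 115 in depleted libraries, with a log2 difference of -0.88 (SE 0.33) and an adjusted p of 0.428 by limma with Benjamini-Hochberg adjustment. Ccl22, a ligand of Ccr4 made by dendritic cells and macrophages, was 97.2, 49.4 and 22.2 and 27.7, 15.5 and 20.6. Cxcr4, the receptor of Cxcl12, was 88.2, 52.5 and 50.5 and 15.4, 21.7 and 85.4. Both of these overlapped between groups, each through 1 library. The most abundant member, Ccl6, was 6047, 8113 and 9698 in control and 6467, 6420.4 and 5446 in depleted libraries, a log2 difference of -0.36 (SE 0.30) that was smaller than the spread within the controls.

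Over all 35 members in lung macrophages, depleted and control libraries did not overlap for 6 members that were higher (among them Ccl12, Ccl8, Ccl9, Ccr2 and Cxcl16) and 6 that were lower (Ccl5, Ccr1, Ccr3, Cxcl10, Cxcl2 and Cxcl3), beside 4.66% and 6.42% of all genes tested. At an unadjusted p below 0.05 in the limma fit stood 11 of 35 members, beside 7.94% of all genes. The median log2 difference of the members was 0.11 beside 0.04 over all genes, or -0.07 over the 33 members left when 1 at 0 reads in both groups and 1 below 3 reads are set aside. Each Cxcr or Ccr value below about 20 in lung (Ccr3, Ccr4, Ccr9 and Cxcr3) rests on a handful of reads.

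**Figure D3:**
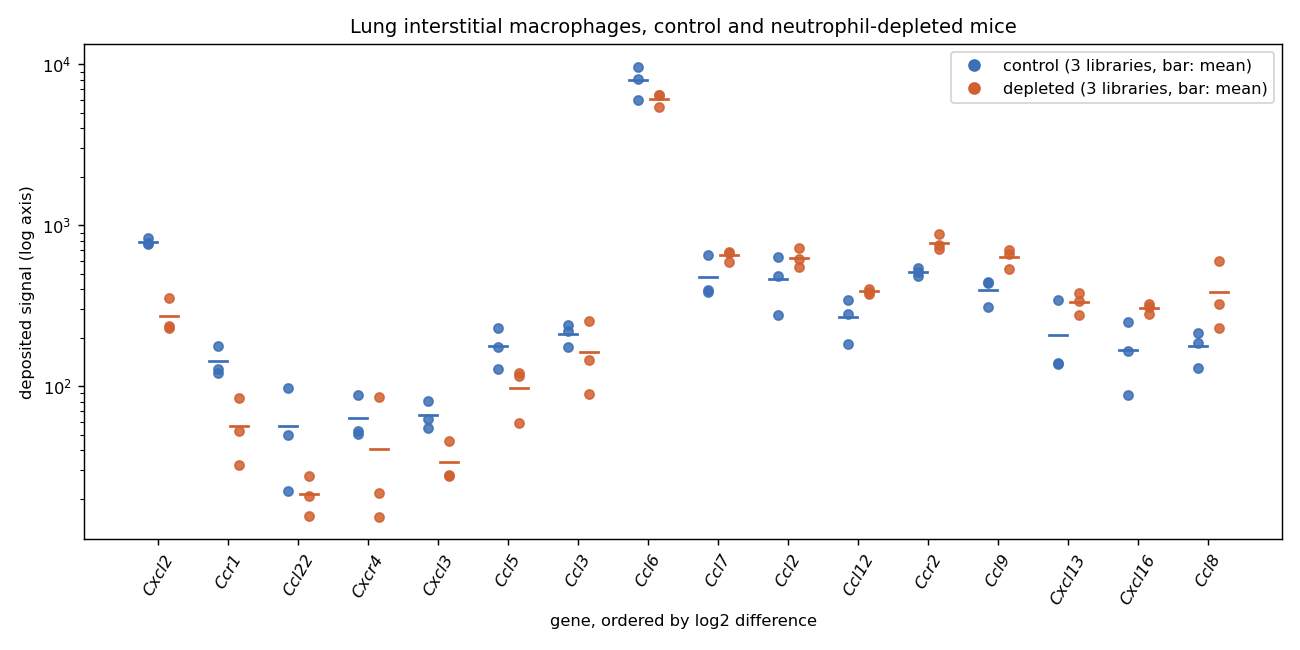
Each gene has its 3 control and 3 depleted lung macrophage libraries as points with the mean as a bar, on a log axis of deposited signal, ordered by log2 difference. Cxcl2 at the left is the gene that passed the test, Ccl6 has the highest signal, and the genes from Ccl12 to Ccl8 at the right have higher means in depleted libraries but did not pass.

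Among 81 other genes of the chemokine system tested in lung macrophages, 4 were called lower and none higher, beside the 0.430% and 0.0674% of all genes given above. Among 16 neighbours of the family (decoy and leukocyte attractant receptors and platelet chemokines), 1 was called lower and none higher: Ccrl2, a receptor-like protein that presents chemerin, with a log2 difference of -1.31 and an adjusted p of 0.0204. Of 20 inducers and RNA decay factors, 2 were lower, the cytokine Il1b (-2.46, adjusted p 5.12e-09) and the NF-kappa-B cofactor Nfkbiz (-1.55, adjusted p 0.00768), all by limma with Benjamini-Hochberg adjustment. Il1b read 1966, 1592 and 2319.8 in control and 477, 269.9 and 339 in depleted libraries. Of 13 genes that bind, present or cleave chemokines, Mmp9 was called lower, and it also stands in the neutrophil list. Neutrophil markers were lower in the same libraries, as given above, and their part in these 4 calls was not tested. None of 32 receptor signalling genes, from G protein subunits to Rac and Dock2, was called in either direction.

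In lung fibroblasts, no member passed the test for depletion, with 0 of 35 called beside 0.00843% of all genes. At an unadjusted p below 0.05 in the limma fit stood 2 of 35 members, close to the 5.06% of all genes. These were Ccl6 and Ccl5. Ccl6 was 101, 113 and 51.7 in control and 133, 154 and 195 in depleted libraries, without overlap, and Ccl5 was 35.5, 14.4 and 26.7 and 3.404, 1.94 and 8.63, also without overlap. Both had an adjusted p of 0.969 by limma with Benjamini-Hochberg adjustment, with log2 differences of 0.91 (SE 0.33) and -2.31 (SE 0.82). The Ccl5 values of 3.404 and 1.94 are those at 0 reads, so its difference rests on the floor and a few reads. The summed macrophage markers in these fibroblast libraries were 182 to 386 in control and 285 to 676 in depleted ones, and the summed alveolar macrophage markers 121 to 311 and 359 to 505, the latter without overlap. The part of either in Ccl6 was not tested. Members that did not overlap between groups numbered 1 higher (Ccl6) and 2 lower (Ccl27a and Ccl5), beside 4.51% and 4.14% of all genes. Ccl11, the eosinophil attractant eotaxin, was 57.3, 20.2 and 16.04 in control and 85.1, 52.5 and 29.4 in depleted fibroblasts, with overlap. At 0 reads in all 6 libraries stood 7 members (Ccl3, Ccr3, Ccr7, Cxcl13, Cxcl3, Cxcr3 and Cxcr4). Another 7 had reads in 1 group only, too few to pass a bound of 3 reads, and were set aside. Over the 21 members with reads in both groups the median log2 difference was 0.03, beside -0.01 over all genes.

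The abundant fibroblast chemokines of lung did not pass the test for depletion. Cxcl14, a homeostatic chemokine of epithelium and stroma, was 461, 407 and 276 in control and 548, 414 and 243 in depleted libraries. Cxcl12, which holds leukocytes and progenitors in stromal niches, was 68.01, 113 and 87.3 and 106, 130.2 and 74.2. Groups overlapped for both.

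Whether the effect of depletion differed between lung macrophages and fibroblasts was tested as an interaction. No member passed, beside 0.0169% of all genes. At an unadjusted p below 0.05 in the limma fit stood 2 of 35 members, beside 5.5% of all genes. Among them was Ccl6, with a difference of effects of -1.27 (SE 0.36). For Cxcl2 the difference of effects was -1.11 (SE 0.63) with an adjusted p of 0.887 (limma with Benjamini-Hochberg adjustment). A fall of Cxcl2 particular to macrophages is therefore not shown, and fibroblasts were close to 0 reads for it.

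In skin macrophages, 4 depleted libraries could be set against 1 control library, which is assumed to vary like the depleted ones. Of 39 members, 0 were called, as for all genes (0%). Ccr2 was 788 in the control library and 1769, 1543, 1237 and 1986 in the depleted ones. As for Ccl6, the single control value of Ccr2 lay below all depleted values. With 1 control library such an order can arise easily, and its share over all genes was not counted. The log2 difference of 1.03 (SE 0.32) had an adjusted p of 0.543 by limma with Benjamini-Hochberg adjustment. Monocyte markers moved with it: of 10 tested, a list that holds Ccr2 itself, 9 had positive differences and none was called. Their summed signal without Ccr2 was 927 in the control and 2008, 1349, 1206 and 2021 in the depleted libraries. Their part in Ccr2 was not tested.

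Among the members higher in the control library than in every depleted one were Ackr1, Ackr4, Ccl11, Ccl24, Cxcl12 and Cxcl13. The share of all genes with this order was not counted. Ackr4, a scavenger of Ccl19, Ccl21 and Ccl25, was 18.3 in the control and 0.0809, 0.4500, 0.188 and 2.78 in the depleted libraries, and Ccl11 was 4.896 against 0.5598, 0.178, 0.533 and 0.308. Both are fibroblast genes in this organ, and the summed fibroblast markers were 2179.6 in the control library and 281 to 1415 in the depleted ones, a link that was not tested. Ccl24, an eotaxin of macrophages, was 117 against 8.82, 34.3, 58.3 and 17.9, and Cxcl13, the B cell attractant, 39.2 against 0.0809, 8.53, 5.65 and 0.0342. Cxcl2 was 118 in the control and 19.7, 60.3, 86.4 and 179 in the depleted libraries, so the control lay inside the depleted range. The summed neutrophil markers were 359 in the control and 215 to 340.1 in the depleted libraries. With the 2 libraries kept apart counted as controls, as labelled, no member was called either, and the direction of Ccl24 and Cxcl2 turned to higher in depleted libraries. The median log2 difference over the 39 members was -0.58, beside -0.10 over all genes.

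In skin fibroblasts, 23 of the 39 members passed the filter on low values, and 0 were called, as for all genes (0%). Beside 2.4% of all genes, 1 of the 23 members had an unadjusted p below 0.05 in the limma fit, Cxcl12. It was 1110.1, 1105 and 1010.2 in control and 1136, 355 and 454 in depleted libraries, so 2 depleted libraries were low and 1 was as high as the controls. The log2 difference of -0.92 (SE 0.39) had an adjusted p of 0.955 (limma with Benjamini-Hochberg adjustment). Ccl11 was 192, 185 and 193 in control and 135, 136 and 151 in depleted libraries and was the 1 lower member whose groups did not overlap, with none higher, beside 4.20% and 4.28% of all genes. Its log2 difference was -0.44 (SE 0.26) with an adjusted p of 0.955 by the same test. Marker lists moved with these ligands, with no marker called: all 12 fibroblast markers had negative differences (82996 to 101751 summed in control against 52898 to 72673 in depleted libraries, without overlap), and all 9 keratinocyte markers tested had positive ones (2819 to 3804 against 1168 to 14149, with overlap). Their part in Cxcl12 and Ccl11 was not tested. The members tested had a median log2 difference of -0.01, beside 0.03 over all genes. The difference between the effects in skin macrophages and skin fibroblasts passed for 0 of 39 members, as for all genes (0%). It too rests on 1 control macrophage library.

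The cell type set most of the pattern. In lung, 27 of 35 members were higher in macrophages than in fibroblasts (19 ligands and 8 receptors) and 5 lower, beside 18.5% and 18.0% of all genes called in those directions. In skin, 18 of the 37 members tested were higher in macrophages (12 ligands and 6 receptors) and 9 lower (5 ligands and the 4 atypical receptors), beside 14.3% and 16.4% of all genes. The median log2 difference was 3.51 in lung and 1.64 in skin, beside -0.09 and -0.11 over all genes, and the lung value stayed at 3.51 with the 8 members at 0 reads in all libraries of 1 cell type set at their bounds. Of 30 members tested in both organs, 22 were called in both and all 22 in the same direction, 18 higher in macrophages and 4 in fibroblasts. The share of all genes called in both organs was not counted, so this agreement has no background beside it. Members took 9466 to 12524 parts in 1000000 of lung macrophage signal and 735 to 1119 of lung fibroblast signal. In skin these figures were 5571 to 7084 and 1798 to 2925.

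**Figure D4:**
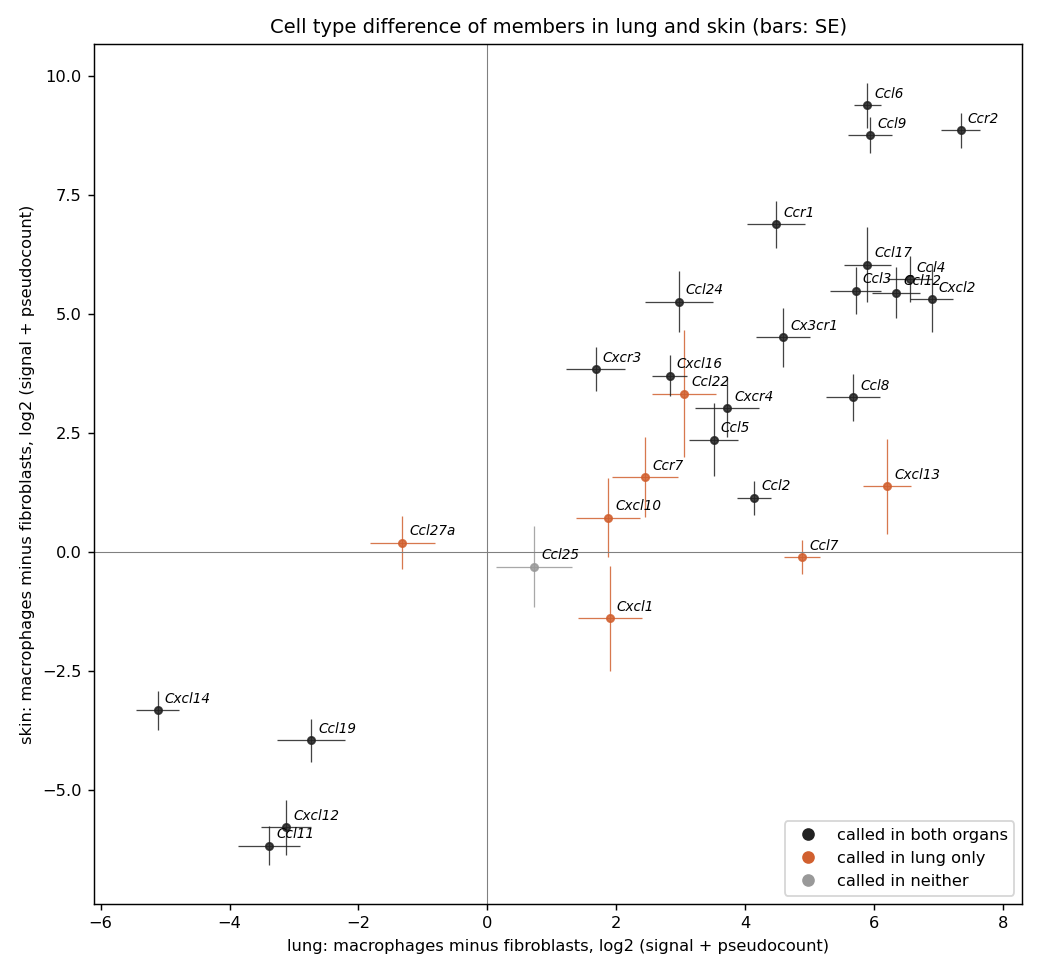
Points are members tested in both organs, each with its macrophage minus fibroblast log2 difference in lung on the x axis and in skin on the y axis, and bars for the SE. Members called in both organs (black) lie in the upper right or lower left corner, and Ccl7, Cxcl1 and Cxcl13 are among the 7 called in lung only (orange).

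Ccl6 had the highest mean signal per kilobase of exon in macrophages of both organs, although in skin its lead over Ccl8 was within their spread. This ligand of Ccr1 is a macrophage and myeloid chemokine of rodents. Its signal had a lowest, median and highest value of 5446, 6444 and 9698 in lung macrophages and 51.7, 123 and 195 in lung fibroblasts, and it made up 47.4 to 68.7% of member reads in lung macrophages. In skin it was 1805 in the control and 1946, 2562, 2933 and 2123 in the depleted macrophage libraries, and at most 15.5 in fibroblasts. The log2 differences were 5.89 (SE 0.21) in lung and 9.37 (SE 0.47) in skin, with adjusted p of 2.52e-21 and 4.70e-09 by limma with Benjamini-Hochberg adjustment. Its neighbour Ccl9 on chromosome 11 had differences of 5.94 (SE 0.34) and 8.75 (SE 0.38), and their receptor Ccr1 4.48 (SE 0.45) and 6.88 (SE 0.49), all called by the same test.

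Per kilobase of exon, after removing the value at 0 reads, Ccl6 stood at 3916 ± 879 units of signal in lung macrophages (SD, n = 6). Ccl7, Ccl12, Ccl4, Ccl8, Ccl17 and Ccl2 followed between 701 ± 172 and 478 ± 136, and neighbours in that order did not differ beyond their spread. In skin macrophages the order per kilobase was Ccl6 at 1267 ± 259, Ccl8 at 843 ± 424 and Ccl9 at 418 ± 70.4 (SD, n = 5), then Ccl17, Ccl7 and Ccr2.

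Ccr2 and its ligands Ccl2 and Ccl12 were called higher in macrophages of both organs, and its ligand Ccl7 in lung. Ccr2 was at 484, 628 and 878 in lung macrophages (lowest, median and highest) and at most 5.83 in lung fibroblasts. In skin it ranged from 788 to 1986 in macrophages and was at most 6.73 in fibroblasts. Its ligand Ccl7 was 387, 626 and 682 in lung macrophages against 8.19, 20.1 and 26.00 in lung fibroblasts, a log2 difference of 4.88 (SE 0.28) with an adjusted p of 4.02e-16 (limma with Benjamini-Hochberg adjustment). In skin, Ccl7 ranged from 108 to 268 in macrophages and from 133 to 485 in fibroblasts, with a log2 difference of -0.10 (SE 0.36) and an adjusted p of 0.860 by the same test. The groups overlapped, and the difference between the organs was not tested because the tables were normalised separately. Ccl2 was called higher in macrophages of both organs, by 4.14 (SE 0.27) in lung and 1.14 (SE 0.36) in skin, and Ccl12 by 6.34 (SE 0.37) and 5.45 (SE 0.53). The skin call of Ccl2 was lost in 8 of 21 alternatives, among them without skin fibroblast depleted replicate 5, without the control macrophage library, and without depleted macrophage replicate 3 or 5.

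Ccl3, Ccl4 and Ccl5 are inflammatory chemokines that attract monocytes and T cells. Ccl4 was 264, 372 and 557 in lung macrophages and at most 8.19 in lung fibroblasts. Ccl3 had 235 estimated reads in lung macrophages and 0 in all 6 lung fibroblast libraries, which makes it at least 81.8-fold higher in macrophages against 3 reads over the fibroblast group. In skin Ccl3, Ccl4 and Ccr1 were called higher in macrophages, with log2 differences of 5.48 (SE 0.50) for Ccl3, 5.73 (SE 0.49) for Ccl4 and 6.88 (SE 0.49) for Ccr1. Ccl5 was also called higher in macrophages of both organs, but its skin call was lost in 11 of 20 alternatives, 8 of them leaving out 1 library: fibroblast control replicate 4 or 5, fibroblast depleted replicate 4 or 5, the control macrophage library, or macrophage depleted replicate 2, 3 or 5.

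The stromal chemokine Cxcl12 was higher in fibroblasts of both organs and its signalling receptor Cxcr4 in macrophages of both. Cxcl12 was 68.01, 96.4 and 130.2 in lung fibroblasts (lowest, median and highest) and 2.97, 11.3 and 21.7 in lung macrophages. In skin fibroblasts it was 355, 1057 and 1136, and in skin macrophages 32.7 in the control and 0.8898, 15.03, 22.6 and 5.02 in the depleted libraries. The log2 differences, macrophages minus fibroblasts, were -3.12 (SE 0.38) and -5.79 (SE 0.58), with adjusted p of 3.16e-08 and 3.23e-06 by limma with Benjamini-Hochberg adjustment. Its signalling receptor Cxcr4 had 63.01 estimated reads in lung macrophages and 0 in lung fibroblasts, at least 22.01-fold higher in macrophages, and the skin difference was 3.03 (SE 0.62). The scavenging receptor of Cxcl12, Ackr3, was a fibroblast gene in skin, at 19.2, 88.98 and 94.3 in fibroblasts and from 0.0809 to 7.41 in macrophages, a log2 difference of -4.09 (SE 0.64). It was not in the lung table. The Ackr3 call was lost, at an adjusted p of 0.0541, with the 2 skin libraries kept apart counted as macrophages.

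The other atypical receptors followed Ackr3 in skin. Ackr2, a scavenger of inflammatory CC chemokines, was 4.03, 33.4 and 70.3 in skin fibroblasts and from 0.03004 to 1.67 in macrophages. Ackr4 was 23.7, 50.2 and 73.9 in fibroblasts and at most 18.3 in macrophages. Ackr1, known as the Duffy antigen receptor of venules and red cells, was 8.58, 39.1 and 65.8 in fibroblasts and at most 4.89 in macrophages. The log2 differences were -4.51 (SE 0.68), -3.72 (SE 0.65) and -3.77 (SE 0.68), with adjusted p of 1.52e-04, 5.32e-04 and 7.13e-04 (limma with Benjamini-Hochberg adjustment). For Ackr1, 25.7% of the exon bases are shared with Cadm3 on the same strand, and for Ackr4 8.90% with Acad11 on the opposite strand, so reads of these pairs may not be fully separated.

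Cxcl14, Ccl11 and Ccl19 completed the fibroblast set that both organs shared. Cxcl14 was 243, 411 and 548 in lung fibroblasts and 2.97, 11.4 and 20.6 in lung macrophages, a log2 difference of -5.12 (SE 0.33). It was 113, 305 and 366 in skin fibroblasts and from 10.9 to 45.4 in skin macrophages. Groups did not overlap in either organ. Ccl11 had 50.02 estimated reads in lung fibroblasts and 0 in all 6 lung macrophage libraries, at least 16.6-fold lower in macrophages, and in skin it was 135, 168 and 193 in fibroblasts against at most 4.896 in macrophages. Its receptor Ccr3, a receptor of eosinophils, had 10 estimated reads in lung macrophages and none in lung fibroblasts. Ccl11 lies on chromosome 11 between 82057823 and 82062955 (GRCm38), in a stretch from 82035571 to 82116799 that also holds Ccl2, Ccl7, Ccl12 and Ccl8. Those 4 were higher in lung macrophages than in lung fibroblasts by the test, while Ccl11 was lower. Ccl19, which guides dendritic cells and naive T cells through Ccr7, had log2 differences of -2.74 (SE 0.52) in lung and -3.96 (SE 0.46) in skin, with adjusted p of 6.84e-05 and 1.26e-05 (limma with Benjamini-Hochberg adjustment). Ccr7 itself had 26.00 estimated reads in lung macrophages and 0 in lung fibroblasts.

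Per kilobase, Cxcl14 was the highest member in lung fibroblasts at 213 ± 62.2 units of signal (SD, n = 6), above Ccl6 at 67.99 ± 27.2 and Ccl11 at 37.9 ± 24.1. In skin fibroblasts Ccl7 at 283 ± 165, Ccl11 at 153 ± 25.9, Cxcl14 at 145 ± 54.4, Ccl19 at 125 ± 62.9 and Cxcl12 at 105 ± 43.8 followed each other, and neighbours did not differ beyond their spread. The 2 skin libraries kept apart had the fibroblast pattern here, with Cxcl12 at 814 and 1045 and Ccl6 at 0.9099 and 1.28.

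**Figure D5:**
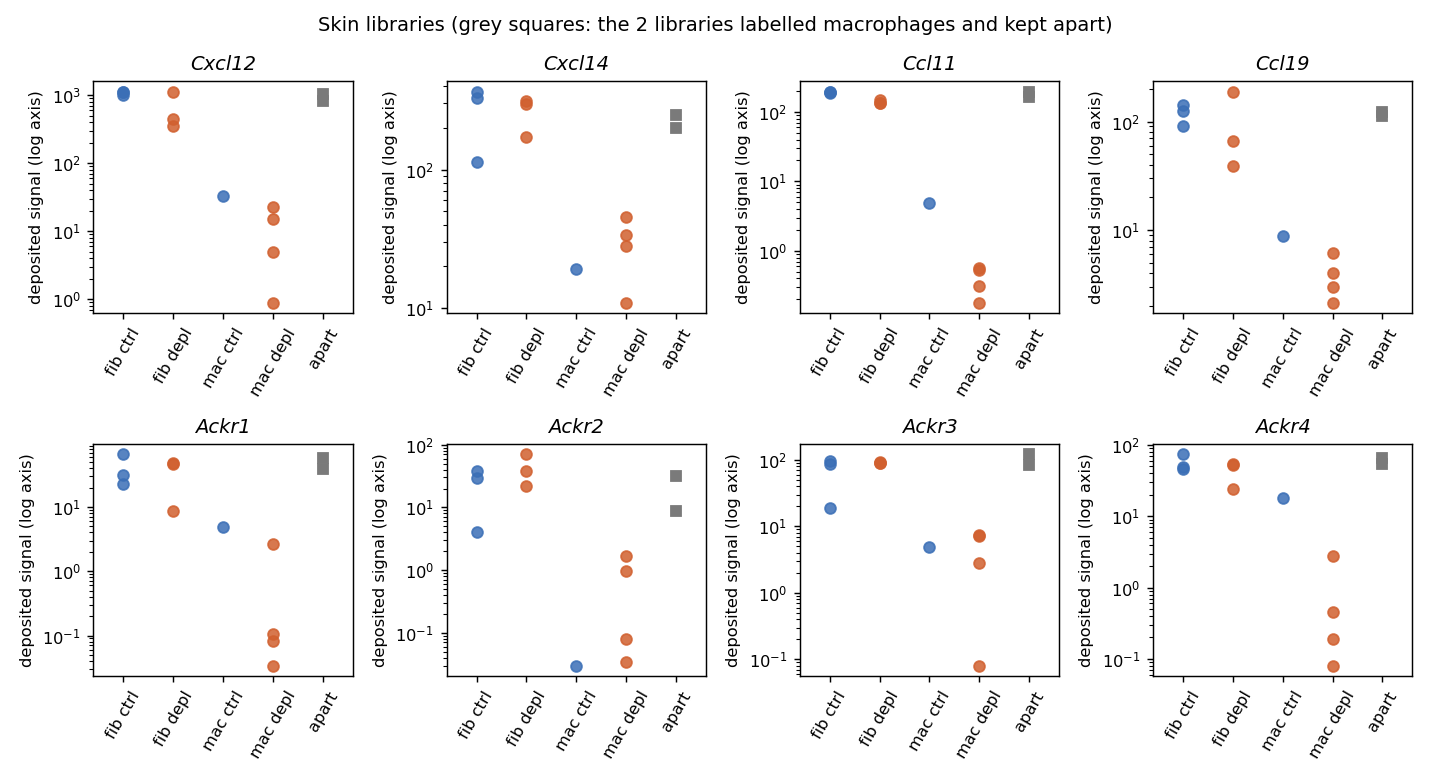
Points are skin libraries on a log axis of deposited signal for 4 ligands and 4 atypical receptors (fib, fibroblasts; mac, macrophages; ctrl, control; depl, depleted), and grey squares are the 2 libraries kept apart. Fibroblast points lie above macrophage points for all 8 genes, with the smallest gaps for Ackr1, Ackr2 and Ackr4, and the squares lie with the fibroblasts.

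Among the neutrophil attractants, Cxcl2 was called higher in macrophages of both organs, by 6.89 (SE 0.33) in lung and 5.31 (SE 0.70) in skin, with adjusted p of 4.26e-18 and 4.68e-05 by limma with Benjamini-Hochberg adjustment. Cxcl1 was called higher in macrophages in lung, at 15.5, 25.7 and 33.8 against 2.73, 4.29 and 16.04 in fibroblasts. In skin Cxcl1 ranged from 0.0339 to 72.7 in fibroblasts and from 0.243 to 24.5 in macrophages, and its log2 difference of -1.39 (SE 1.11) had an adjusted p of 0.379. Cxcl3 had 60.4 estimated reads in lung macrophages and 0 in lung fibroblasts, at least 20.97-fold higher. The lung call of Cxcl1 was lost in control mice alone.

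Ccl17, a Ccr4 ligand, was 134, 269 and 405 in lung macrophages and at most 5.35 in lung fibroblasts, and in skin macrophages it ran from 33.5 to 280.5. Cxcl13 had 329 estimated reads in lung macrophages and 0 in lung fibroblasts, at least 118-fold higher. In skin the Cxcl13 difference of 1.37 (SE 0.9962) had an adjusted p of 0.333 by limma with Benjamini-Hochberg adjustment. Cxcl16 was called higher in macrophages in both organs (2.82 (SE 0.28) and 3.70 (SE 0.43)), and its receptor Cxcr6 was present in the skin table only, at 13.1 in the control and 26.7, 8.78, 1.03 and 0.171 in the depleted macrophage libraries. Cxcr3, the receptor of Cxcl9 and Cxcl10, was called higher in macrophages in both organs. In depleted mice alone, the lung calls of Cxcr3, Ccr7, Ccr3 and Cxcl10 were lost, with adjusted p from 0.0768 for Ccr7 to 0.177 for Ccr3 (limma with Benjamini-Hochberg adjustment). The skin macrophage libraries also held the T cell gene Cd3e at 76.2 in the control and 64.8, 26.7, 34.4 and 8.78 in the depleted libraries, and the part of other cells in Cxcr3 and Cxcr6 was not tested.

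Cx3cr1, the fractalkine receptor of resident macrophages and monocytes, was 134, 149 and 236 in lung macrophages and at most 18.8 in lung fibroblasts. In skin macrophages it was 33.6 in the control and 37.95, 20.98, 8.36 and 80.4 in the depleted libraries. It was called higher in macrophages in both organs, by 4.59 (SE 0.41) and 4.50 (SE 0.62). Its ligand Cx3cl1, in the skin table only, was 1.39, 9.66 and 20.03 in skin fibroblasts and was called lower in macrophages at an adjusted p of 0.0494 (limma with Benjamini-Hochberg adjustment), a call that was lost in 16 of 20 alternatives, 9 of them leaving out 1 library: fibroblast control replicate 3 or 4, fibroblast depleted replicate 2, 4 or 5, the control macrophage library, or macrophage depleted replicate 1, 2 or 5.

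Cxcl15 is a chemokine of lung epithelium, and it was called higher in lung macrophages, at 9.03, 18.6 and 24.9 against 1.78, 4.01 and 21.4. The call was lost in depleted mice alone, with a log2 difference of 1.23 and an adjusted p of 0.242 (limma with Benjamini-Hochberg adjustment). The epithelial marker sum was 2328 to 9419 in control and 11618 to 26705 in depleted macrophages, and 488 to 1889 and 1736 to 5361 in control and depleted fibroblasts, and its part in Cxcl15 was not tested. Ccl27a and Ccl21a have near-identical copies in the mouse genome that counting can split, so their values are uncertain. Ccl27a was called lower in lung macrophages (-1.32 (SE 0.51)), and that call was lost in 9 of 21 alternatives, 8 of them leaving out 1 library: any fibroblast control, fibroblast depleted replicate 3, macrophage control replicate 1 or 3, or macrophage depleted replicate 1 or 2. Ccl25, with exons that overlap Elavl1, was called in neither organ.

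Of 32 genes of receptor signalling, 26 were higher and 2 lower in lung macrophages than in lung fibroblasts, and in skin 24 of 31 were higher and none lower, beside 18.5% and 18.0% of all genes in lung and 14.3% and 16.4% in skin. Among them were the leukocyte genes Rac2 (3.53 in lung and 7.44 in skin), Dock2 (4.46 and 6.02) and Rgs1 (4.34 and 7.42). The median log2 difference of the list was 2.34 in lung and 3.24 in skin, beside the medians over all genes given above. Of the genes that bind, present or cleave chemokines, 7 of 13 were lower and 3 higher in lung macrophages, and 8 of 15 were lower and 2 higher in skin macrophages. Those lower in both included the gelatinase Mmp2 (-5.65 and -5.64) and Tnfaip6 (-2.86 and -5.79). Among the family's neighbours, 11 of 16 were higher and 2 lower in lung macrophages, and 9 of 13 were higher and 1 lower in skin macrophages, with Cd74, a Mif receptor subunit, among those higher, and the platelet chemokine Pf4. Rarres2, which encodes chemerin, was lower in macrophages of both organs, with log2 differences of -5.45 and -5.54.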

How the data were processed

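RNA of sorted lung and skin macrophages and fibroblasts was amplified, and single-end reads were sequenced, per the labels' protocols. The submitters' processing notes name mm10 and, in no order or role, limma 3.46, RSEM 1.7.1, CASAVA 1.8 and cutadapt 1.7.1. The authors deposited 1 table of linear signal per organ, and within a library the signal is the estimated read number plus 0.5, times a constant. These are estimates and not counts, so no count model was used. Gene identifiers were matched to GENCODE M21 symbols, with 38 unmatched in lung and 20 in skin. Promoters come from RefSeq.

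Each comparison was fitted across all genes with limma 3.58.1 in R 4.3.3 (two-sided, lmFit and trended eBayes) of log2-transformed signal, after adding 1 part in 1000000 of the mean library total (1.04 in lung, 1.001 in skin), a scale that understates changes of low genes. A gene was tested if it reached 1 part in 1000000 in a number of libraries equal to the smaller group, and a Benjamini-Hochberg adjusted p below 0.05 is a call. In lung the value at 0 reads already lay above that level, so the filter removed no gene and all 11867 were tested. Cell types were compared with genotype as a term. The tests were checked on simulated data with known changes in more abundant genes. For depletion, 31% of 4-fold changes were called in lung macrophages, 52% in lung fibroblasts, 3% in skin macrophages and 69% in skin fibroblasts. Of 2-fold changes at most 6% were called there. Between cell types, 86% of 4-fold changes were called in lung and 97% in skin. A depletion result without a call therefore does not show that a member was unchanged. Alternatives were other pseudocounts, filters and scalings, no variance trend, a model of 4 groups, a replicate block, 1 genotype alone, leaving out each library, and libraries as labelled.

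Named were all called members and the most abundant ones. Members with an unadjusted p below 0.05, or without overlap, were named after their values were seen. Among the genes that fit the symbol rule, 1 was left out of all counts, and 1 is counted but not reported here by name. The members, gene lists and tests were chosen with earlier results of these data known.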

Additional observations from a re-analysis of the deposited data

Results flagged for a closer look

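In the 4 libraries of depleted skin macrophages, 39 members were screened for 1 library far from the others. Such a library was found for 3, beside about 1 in 20 by chance if values were normally distributed. Signal near 0 reads is not, so that rate is only a guide. Ackr1 stood at 2.66 in replicate 2 and at 0.0342 to 0.107 in the others. Ackr4 stood at 2.78 in replicate 5 and at 0.0809 to 0.450 in the others. Cx3cl1 stood at 8.35 in replicate 3 and at 0.0312 to 0.0809 in the others. For each of these genes the lowest of the other values was its library's value at 0 reads. The 3 values lie in 3 different libraries, rest on 42, 40.2 and 117 estimated reads, and belong to genes that were higher in skin fibroblasts.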

How the results depend on the processing

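Directions of the calls between cell types held under every alternative that tested the member, and 24 of 31 lung calls on members named here and 21 of 26 skin calls on them passed in every alternative that tested the member. With the 2 skin libraries kept apart counted as macrophages, 16 members passed in skin, and Ccl24, Ccl3, Ccl4, Ccr1, Cx3cr1 and Cxcr3 failed the filter and were not tested there. In lung macrophages, depletion called 2 members with scaling to the library total (Cxcl2 and Ccr1), 0 without a variance trend, 0 in a model of 4 groups, and 0 to 2 when 1 library was left out, where control replicate 2 lost Cxcl2. The number of genes called there, 59, was 27 with quantile normalisation, 18 in the model of 4 groups, 0 without a variance trend, and 11 and 12 without control replicate 2 or 3. For Cxcl2 the adjusted p ran from 7.62e-06 to 0.418. Scaling to the library total moved the median over all genes from 0.04 to -0.08 in lung macrophages, from -0.09 to -0.46 between lung cell types and from -0.11 to -0.40 between skin cell types. As labelled, the depletion difference in skin macrophages was 2.30 for Ccl24 and 3.02 for Cxcl2, against -2.24 and -0.83, and 2.13 and 3.06 with a replicate block, an alternative chosen after seeing the data. Replicate numbers did not pair the samples, since deviations of same-numbered libraries correlated by -0.08 to 0.06 in lung and -0.03 to 0.14 in skin. The replicate block called 1 member in skin fibroblasts (Cxcl12, adjusted p 0.0216, 84 genes) and 2 in the skin interaction (Ccl6 and Cxcl1, 201 genes), and left Cxcr4 between skin cell types at an adjusted p of 0.0510. Lung fibroblasts kept 0 calls throughout. Without any filter, skin macrophage depletion called 62 genes and no member. It could not be fitted with the block, nor, like the skin interaction, without the control library. The cause of these changes was not tested. At 124075 to 385925 reads per lung library, small changes in low members such as Cxcr3 were not detectable. On simulated data, most 2-fold depletion changes of more abundant genes were missed as well.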
